A study of Homo sapiens with 32 samples.

Results

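In all, 10 genes of the cytosolic heat shock system were followed: HSPA1A and HSPA1B (inducible HSP70), HSPA8 (constitutive HSP70, also called HSC70), DNAJB1 (an HSP40 co-chaperone), HSPH1 and HSPA4L (HSP110 proteins), BAG3 (a co-chaperone), HSP90AA1 and HSP90AB1 (HSP90 alpha and beta) and HSPB1 (HSP27). They were chosen by symbol among the 60660 gene rows of the count table, through the Ensembl identifier of each row, so that all 10 had a row. No measured value entered the choice, although earlier results of these data were known when the list was drawn up. Each gene is described by its level in 32 libraries and by its response to tunicamycin in each genotype and clone.

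HSP70 proteins hold unfolded stretches of other proteins and release them in a cycle driven by ATP. J-domain proteins such as DNAJB1 bring clients and start ATP hydrolysis, while HSP110 proteins and BAG proteins act as nucleotide exchange factors that open the cycle again. HSP90 takes over partly folded clients such as kinases and steroid receptors, and small heat shock proteins such as HSPB1 bind unfolded proteins without ATP. In the textbook heat shock response, the transcription factor HSF1 raises these genes when proteins unfold in the cytosol. Tunicamycin instead blocks N-linked glycosylation and so unfolds proteins in the endoplasmic reticulum (ER), which raises ER chaperones through the unfolded protein response.

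The libraries were made from poly(A) RNA of HCT116, a human colorectal carcinoma cell line, and every line used here carried OsTIR1 under a doxycycline-inducible (tetON) promoter with a puromycin marker. Parental cells (2 samples) were set beside 3 clones with a Cas9 knockout of IGF2BP3 (A3, D12, E4) and 3 with a knockout of IGF2BP2 (B7, F6, G6), both genes encoding RNA-binding proteins. Each of these 8 lines had 2 DMSO and 2 tunicamycin libraries, which gives 4 parental and 6 knockout libraries of either genotype per treatment. Parental and IGF2BP3 knockout cells received 5 µg/mL tunicamycin for 4 h, or DMSO alone; dose and time for IGF2BP2 knockout cells are not given in the sources used here. Each clone grew from a single sorted cell, A3 and E4 share a guide, and B7 and F6 share another. The labels do not say whether the 2 libraries of a line and treatment came from separate cultures, so p-values measure the spread between these libraries, which may be technical. The control libraries of clone G6 are called control in their titles and tunicamycin in another label, and they were placed by title. HSPA5, an ER chaperone outside the members, ran from 775.5 to 1057 CPM in the 6 IGF2BP2 knockout DMSO libraries, those of G6 included. With tunicamycin it ran from 8979 to 10000 CPM in that genotype.

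Total counts were 16651438 to 24913021 per library. Levels are given in CPM, counts scaled to library size with TMM factors. Under DMSO the parental level of IGF2BP3 was 76.7 ± 7.22 CPM (SD, n = 4), against 27.7 ± 10.8 CPM in its knockout (SD, n = 6), and IGF2BP2 stood at 176 ± 19.9 and 86.9 ± 5.33 CPM in parental cells and its own knockout, so both transcripts remained measurable. The epithelial markers EPCAM, KRT8, KRT18, CDH1 and the intestinal CDX2 were present in all libraries, whereas VIL1, another intestinal marker, was at 3 counts or fewer in each. Of 4 markers of other cell types, PTPRC, PECAM1 and COL3A1 had at most 3 counts in any library, and COL1A1 averaged 8.99 CPM in DMSO and 9.45 CPM in tunicamycin. Summed over the 4, these markers ran from 4.7 to 11.1 CPM in DMSO and from 4.85 to 12.2 CPM in tunicamycin.

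HSPA1A and HSPA1B, the genes most often used as a sign of the heat shock response, were listed at or near 0. HSPA1A (ENSG00000204389_10, chromosome 6 from 31815464 to 31817946 on GRCh38) had 27 counts over the 16 DMSO libraries, with at most 5 in any, and 2 counts over the 16 tunicamycin libraries. HSPA1B (ENSG00000204388_7, chromosome 6 from 31827735 to 31830255) had 2 counts in DMSO and 0 in tunicamycin, where a count of 0 allows up to 3 counts, or 0.13 to 0.189 CPM per library. Both failed the filter on low counts, and no fold is given. With the filter left out, HSPA1A passed over all lines (edgeR adjusted p = 0.00379), on the few counts above, and in no genotype alone. HSPA1B did not pass over all lines (edgeR adjusted p = 0.564). Their exons share sequence: 67.3% of the 100-base windows of HSPA1A transcripts and 72.7% of those of HSPA1B also occur in transcripts of another gene, nearly all in each other, so reads could be lost or split between them. How the authors counted such reads is not given in the sources used here, and these values say nothing firm about either gene. The other 8 members passed the filter, and all counts below are over those 8.

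The 8 tested members covered a wide range of levels. Scaled to exon length, DMSO libraries held 2186 ± 162 CPM per kilobase of HSP90AB1, 965 ± 104 of HSP90AA1, 715 ± 60.8 of HSPA8, 205 ± 24.9 of HSPB1, 72 ± 8.51 of DNAJB1, 54.1 ± 9.73 of HSPH1, 42.1 ± 3.23 of BAG3 and 5.95 ± 0.866 of HSPA4L (SD, n = 16). The order had 3 pairs of neighbours whose libraries overlapped, which were HSP90AA1 with HSPA8, DNAJB1 with HSPH1, and HSPH1 with BAG3. In tunicamycin the same order held, but HSPA8 at 210 ± 17.1 CPM per kilobase no longer overlapped HSP90AA1 at 880.1 ± 69.7 and instead overlapped HSPB1 at 183 ± 26.5 (SD, n = 16). Summed over all 10 members, the level went from 16286 ± 1156 CPM in DMSO to 12909 ± 518 CPM in tunicamycin (SD, n = 16). HSPA8 made up a median of 21.4% of that sum in DMSO and 7.96% in tunicamycin. In bulk libraries, fewer cells of a kind and less RNA per cell cannot be told apart.

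**Figure D1:**
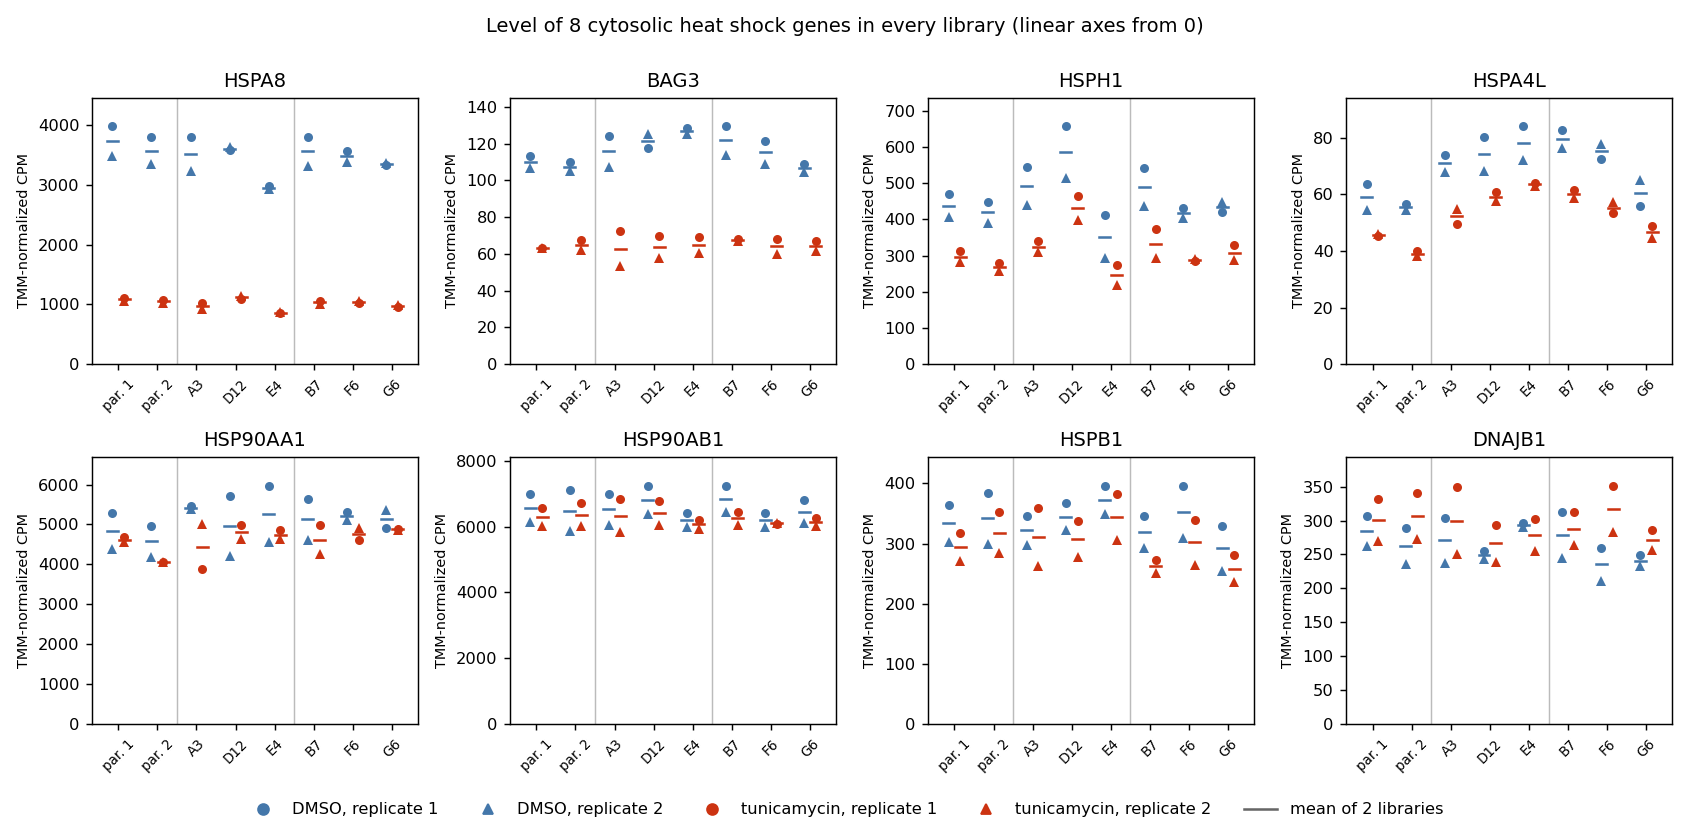
Level of the 8 tested members in each library, in TMM-normalized CPM on linear axes from 0. Each panel is 1 gene and each position 1 line (par. 1 and par. 2 are the parental samples); blue points are DMSO and red points tunicamycin libraries, circles replicate 1, triangles replicate 2, and short bars the mean of 2 libraries. HSPA8, BAG3, HSPH1 and HSPA4L have all red points below the blue points of the same line, while for each gene of the lower row the treatments overlap in 4 or more of the 8 lines. The share of all tested genes separated in this way was not computed.

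HSPA8 fell more than any other tested member. HSPA8 (ENSG00000109971_14, chromosome 11 from 123057489 to 123063230, minus strand) encodes the constitutive cytosolic HSP70, which folds nascent chains and uncoats clathrin vesicles. Parental DMSO libraries held 3977 and 3482 CPM in sample 1 and 3804 and 3338 CPM in sample 2. With tunicamycin they held 1108 and 1059 CPM in sample 1 and 1075 and 1027 CPM in sample 2. Every treated library thus lay far below every control library. The IGF2BP3 knockout libraries had a lowest, median and highest level of 2920, 3399 and 3791 CPM in DMSO and of 851, 969 and 1145 CPM in tunicamycin. The IGF2BP2 knockout libraries ran over 3317, 3370 and 3797 CPM in DMSO and 962, 1020 and 1062 CPM in tunicamycin. The treatments did not overlap in any of these groups. The log2 fold change was -1.77 in parental cells (SE 0.0541, edgeR adjusted p = 2.1e-08), -1.76 in IGF2BP3 knockout (SE 0.0482, adjusted p = 2.46e-12) and -1.74 in IGF2BP2 knockout (SE 0.0356, adjusted p = 6.08e-14), that is 3.41-fold, 3.39-fold and 3.35-fold lower. Over all 8 lines it was -1.76 (SE 0.0265, adjusted p = 1.62e-30), rank 20 from the most negative of 15622 tested genes.

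BAG3, HSPH1 and HSPA4L, which all work with HSP70, fell in each genotype as well, by smaller amounts. BAG3 (ENSG00000151929_10, chromosome 10 from 119651370 to 119677819) links HSP70 to selective autophagy. Its parental libraries held 113, 107, 109.8 and 105 CPM in DMSO and 63.5, 63.3, 67.8 and 61.9 CPM in tunicamycin, without overlap. In IGF2BP3 knockout the lowest, median and highest levels were 107, 125 and 129 CPM in DMSO and 53.4, 65 and 72.3 CPM in tunicamycin. In IGF2BP2 knockout they were 105, 112 and 129.5 CPM and 59.9, 66.8 and 68.4 CPM. The log2 fold change was -0.76 in parental cells (edgeR adjusted p = 2.01e-06), -0.92 in IGF2BP3 knockout (adjusted p = 1.41e-07), -0.79 in IGF2BP2 knockout (adjusted p = 5.06e-09) and -0.83 over all lines (SE 0.0376, adjusted p = 3.1e-18).

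HSPH1 (ENSG00000120694_20, chromosome 13 from 31134974 to 31162388, minus strand), an HSP110 that resets HSP70, stood in parental cells at 469.9, 406, 449 and 390.5 CPM in DMSO and at 312, 282, 279 and 256.5 CPM in tunicamycin. The 4 control libraries lay above the 4 treated ones. IGF2BP3 knockout libraries spread more widely, from 294 through a median of 477.5 to 657 CPM in DMSO and from 217 through 324 to 465 CPM in tunicamycin, and the treatments overlapped between clones. IGF2BP2 knockout libraries ran from 404 through 435 to 542 CPM in DMSO and from 285 through 292 to 372 CPM in tunicamycin, without overlap. Its log2 fold change was -0.60 in parental cells (edgeR adjusted p = 5.04e-05), -0.51 in IGF2BP3 knockout (adjusted p = 0.000361), -0.51 in IGF2BP2 knockout (adjusted p = 1.05e-05) and -0.54 over all lines (SE 0.0482, adjusted p = 5.16e-11).

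HSPA4L (ENSG00000164070_12, chromosome 4 from 127781821 to 127840733) is a less abundant HSP110. Parental libraries held 63.7, 54.6, 56.4 and 54.3 CPM in DMSO and 45.1, 46.1, 40 and 38.1 CPM in tunicamycin. IGF2BP3 knockout libraries ran from 67.9 through a median of 73 to 84 CPM in DMSO and from 49.6 through 59.1 to 64 CPM in tunicamycin. IGF2BP2 knockout libraries ran from 55.9 through 74.4 to 82.8 CPM and from 44.6 through 55.2 to 61.6 CPM. The treatments were apart in parental and IGF2BP3 knockout libraries and overlapped in IGF2BP2 knockout, where clone G6 was lower than the others in both treatments. The log2 fold change was -0.43 (edgeR adjusted p = 0.000346), -0.34 (adjusted p = 0.000121) and -0.39 (adjusted p = 2.46e-05) in parental, IGF2BP3 knockout and IGF2BP2 knockout cells, and -0.39 over all lines (SE 0.0308, adjusted p = 3.21e-12).

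The HSP90 genes and HSPB1 moved by much less. HSP90AB1 (chromosome 6 from 44246166 to 44253888), the constitutive HSP90, had a log2 fold change of -0.05 over all lines (95% interval -0.11 to 0.01, edgeR adjusted p = 0.194), with libraries from 5871 to 7249 CPM in DMSO and from 5839 to 6837 CPM in tunicamycin. HSP90AA1 (chromosome 14 from 102080738 to 102139699), the more stress-responsive paralog, ran from 4191 to 5970 CPM in DMSO and from 3882 to 5000 CPM in tunicamycin. It fell by 0.12 on the log2 scale over all lines (SE 0.044, edgeR adjusted p = 0.0187) and passed in no genotype alone in the fits without replicate number. Among replicate 1 libraries alone the HSP90AA1 change over all lines was -0.19 (edgeR adjusted p = 0.000732), and among replicate 2 libraries alone it was -0.03 (adjusted p = 0.263), where the call was lost. HSPB1 (chromosome 7 from 76302544 to 76304295), the small heat shock protein, ran from 255 to 396 CPM in DMSO and from 236.5 to 382 CPM in tunicamycin. It fell by 0.15 over all lines (SE 0.0551, edgeR adjusted p = 0.0205) and in those fits also passed in no genotype alone, with adjusted p = 0.0507 in IGF2BP2 knockout. In those fits, without clone B7, the value over all lines was -0.13 (edgeR adjusted p = 0.0563). With replicate number added to the fit, HSPB1 passed in parental cells (edgeR adjusted p = 0.00471), IGF2BP3 knockout (0.0431) and IGF2BP2 knockout (4.91e-05). Control and treated libraries overlapped for all of these genes.

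DNAJB1 went the other way. It encodes the main stress-inducible J-domain partner of HSP70 and lies on chromosome 19 from 14514770 to 14529770 (minus strand). Parental libraries held 307, 263, 289 and 236 CPM in DMSO and 332, 269.5, 341 and 273 CPM in tunicamycin. IGF2BP3 knockout libraries ran from 237.5 through a median of 273 to 304 CPM in DMSO and from 239 through 275 to 349.8 CPM in tunicamycin. IGF2BP2 knockout libraries ran from 211 through 247 to 313 CPM and from 256 through 285 to 351 CPM. The treatments overlapped in each genotype. Its log2 fold change was 0.16 in parental cells (edgeR adjusted p = 0.252), 0.07 in IGF2BP3 knockout (adjusted p = 0.578), 0.24 in IGF2BP2 knockout (adjusted p = 0.0301) and 0.15 over all lines (SE 0.0579, adjusted p = 0.0296). Neither call held without clone F6, where the change was 0.13 in IGF2BP2 knockout (edgeR adjusted p = 0.218) and 0.11 over all lines (adjusted p = 0.0935), and the first was also lost without clone G6 (adjusted p = 0.0905). With total counts in place of TMM factors, which moved the median of all genes from -0.01 to -0.09, the change over all lines was 0.07 (edgeR adjusted p = 0.201). All of these fits left replicate number out. Once it was added, DNAJB1 passed in parental cells (edgeR adjusted p = 0.00594), in IGF2BP2 knockout (0.000518) and over all lines (0.000437). It did not pass in IGF2BP3 knockout (edgeR adjusted p = 0.417).

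Counted together, 4 of 8 tested members were called lower in parental cells, where 14.3% of all tested genes were, and 4 of 8 in IGF2BP3 knockout, where 17.6% were. In IGF2BP2 knockout 4 of 8 were called lower and 1 higher, against 20.9% and 19.2% of all genes. Over all lines 6 of 8 were called lower and 1 higher, against 28.4% and 25% of 15622 genes. The median log2 fold change of the 8 was -0.28, -0.24 and -0.30 in parental, IGF2BP3 knockout and IGF2BP2 knockout cells, beside -0.01 for all tested genes in each.

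The promoters were searched for a short form of the heat shock element, the site that HSF1 is known to bind. This short form was written as GAANNTTC or TTCNNGAA on either strand with overlapping matches counted. The windows were RefSeq's on GRCh38.p14 and ran from 250 bases before to 50 bases after an annotated start, and all 10 members had at least 1. Of the members' 17 windows, 9 (52.9%) held a match, against 13.5% of 35116 windows of all genes, and 8 of 10 members had a match in at least 1 window. The 250 bases before the start are shown for HSPA8, the member that fell most, for DNAJB1, the member that was higher, and for BAG3, which fell and had no match; capitals mark heat shock elements.
HSPA8, chr11:123062137-123062386, minus strand: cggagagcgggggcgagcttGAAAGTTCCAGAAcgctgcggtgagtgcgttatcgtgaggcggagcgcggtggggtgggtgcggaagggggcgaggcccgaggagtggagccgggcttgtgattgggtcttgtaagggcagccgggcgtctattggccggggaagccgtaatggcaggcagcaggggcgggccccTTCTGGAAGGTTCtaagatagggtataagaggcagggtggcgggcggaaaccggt
DNAJB1, chr19:14518398-14518647, minus strand: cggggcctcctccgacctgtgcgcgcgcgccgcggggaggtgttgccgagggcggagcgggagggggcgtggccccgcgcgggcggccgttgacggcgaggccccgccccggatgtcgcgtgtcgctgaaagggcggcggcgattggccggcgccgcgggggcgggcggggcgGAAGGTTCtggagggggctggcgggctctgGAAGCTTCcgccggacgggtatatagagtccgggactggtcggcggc
BAG3, chr10:119651130-119651379, plus strand: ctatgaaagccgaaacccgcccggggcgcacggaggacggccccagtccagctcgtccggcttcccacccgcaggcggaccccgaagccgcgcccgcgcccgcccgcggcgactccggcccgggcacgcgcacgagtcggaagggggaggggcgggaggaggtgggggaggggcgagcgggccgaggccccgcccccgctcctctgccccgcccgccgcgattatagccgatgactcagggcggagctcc
HSPA8 had 4 matches in its window, beginning at positions -230, -225, -55 and -50 from the start, and this DNAJB1 window, the second of 3, had matches beginning at -77 and -47. DNAJB1 had another match in window 3, beginning at position 2. HSPA8 was lower in tunicamycin and DNAJB1 was not. HSP90AB1 had 4 matches in window 3, as many as HSPA8, with a log2 fold change of -0.05 over all lines. HSP90AA1 had 3 matches in window 2, with -0.12. HSPA4L and HSPB1 had 1 match each, with -0.39 and -0.15. HSPH1, which fell, had no match in its window, like BAG3. Whether the number of matches goes with the response was not tested. The ER stress element, CCAAT and CCACG with 9 bases between them, was in 0.0769% of all windows, in windows of 2 of the 8 ER chaperone genes listed below (HSPA5 and HSP90B1) and of 0 of the 10 members. The element TGATGNAA of C/EBP-ATF factors was in 3.62% of windows and, among members, in 1 window of HSPA4L. A match of these letters is a description of sequence, and binding was not measured. Other forms of these sites, and sites outside the windows, were not searched for.

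To ask whether loss of either RNA-binding protein altered these responses, the difference of responses between genotypes was tested. No member was called. The response of HSPA8 in IGF2BP3 knockout minus that in parental cells was 0.01 on the log2 scale (95% interval -0.13 to 0.16), and in IGF2BP2 knockout minus parental cells it was 0.03 (-0.11 to 0.16). BAG3 had the most negative difference of the IGF2BP3 knockout comparison, -0.15 (-0.36 to 0.05), and HSPH1 and HSPA4L had 0.09 (-0.17 to 0.36) and 0.09 (-0.07 to 0.26). DNAJB1 had -0.08 (-0.37 to 0.21) in IGF2BP3 knockout and 0.08 (-0.21 to 0.38) in IGF2BP2 knockout, each minus parental cells. Between the knockouts, its difference was -0.16 (-0.43 to 0.11). The edgeR adjusted p was 1 for each of the 8 members in each of the 3 tests, in which 0% of 15313, 15178 and 14916 genes were called. At an unadjusted p under 0.05 the tests counted 255, 213 and 271 genes. Chance alone would give a share of about 0.05 of the genes, and each of these counts was below that. The tests were thus cautious, and the lack of a call does not show equal responses. They left replicate number out, and whether this made them cautious was not tested. No member was called with replicate number added either. The intervals of HSPA8 leave out differences beyond 0.16 in either direction in these 2 tests against parental cells, while those of DNAJB1 and HSP90AA1 are wider.

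**Figure D2:**
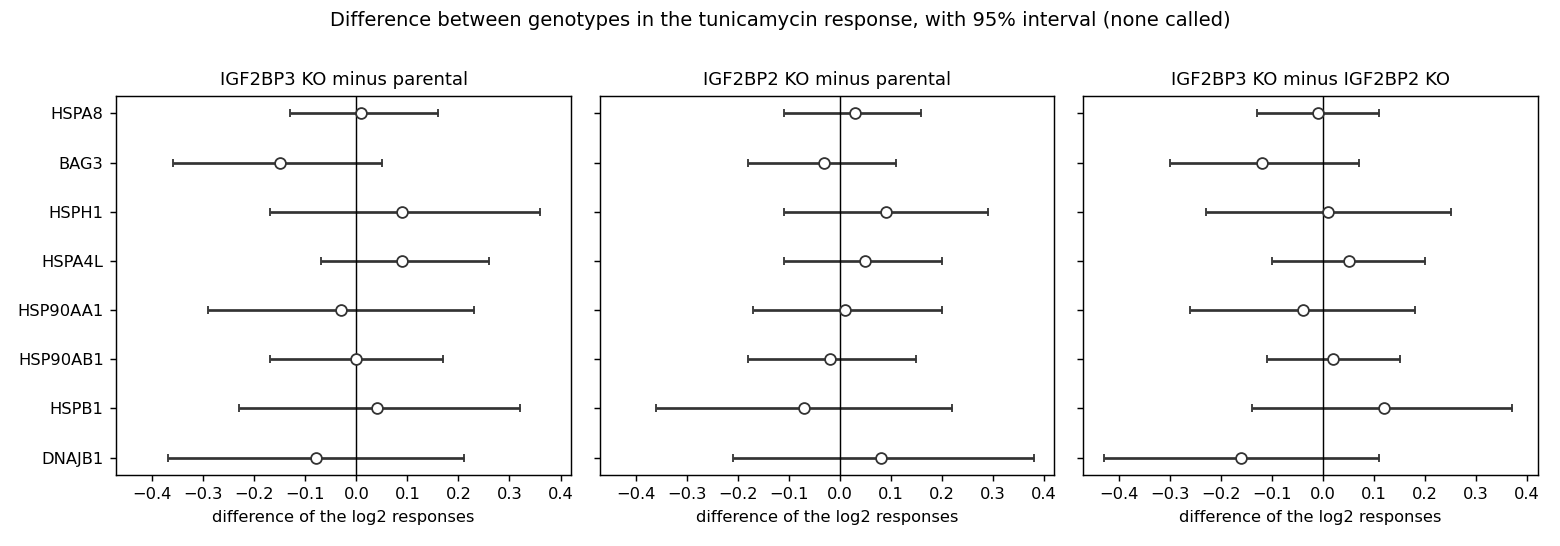
Difference between genotypes in the log2 tunicamycin response of the 8 tested members (horizontal axis), with 95% intervals as bars and the estimate as an open circle; each panel is 1 pair of genotypes. Every interval includes 0, and the interval of HSPA8 in the left panel runs from -0.13 to 0.16.

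The responses were next set side by side by line. HSPA8 was called lower in 8 of 8 lines, with log2 fold changes from -1.86 in clone A3 to -1.67 in clone D12. BAG3 was called lower in 8 of 8, from -0.96 in clone E4 to -0.72 in clone G6, and HSPA4L in 8 of 8, from -0.50 in parental sample 2 to -0.29 in clone E4. HSPH1 was called in 7 of 8, from -0.64 in parental sample 2 to -0.43 in clone D12, where the edgeR adjusted p was 0.0708. With replicate number added to the fit, the edgeR adjusted p of HSPH1 in D12 was 0.000608. For these 4 genes both treated libraries lay below both control libraries in each of the 8 lines. The share of all tested genes separated in this way was not computed, so this describes these 4 genes only. DNAJB1 lay above 0 in 7 of 8 lines and was called in none in the fit without replicate number. With replicate number added, DNAJB1 was called in 2 lines. Its highest value was 0.45 in clone F6 (edgeR adjusted p = 0.0822), where DMSO libraries held 259 and 211 CPM and tunicamycin libraries 351 and 282.5 CPM, and its lowest was -0.07 in clone E4. HSP90AA1 and HSPB1 lay below 0 in 8 of 8 lines and HSP90AB1 in 7 of 8, with no call in the fit without replicate number. With replicate number added, HSPB1 was called in 3 lines and either HSP90 gene in 0. Without replicate number in the fit, the members called lower thus numbered 4 of 8 in each line but D12, with 3. In that fit the share of all 15622 genes called lower was 8.8% and 7.12% in parental samples 1 and 2, 6.93% in A3, 7.43% in D12, 5.72% in E4, 7.91% in B7, 7.66% in F6 and 7.79% in G6.

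Whether the response differed among the lines of a genotype was tested directly. No member was called among the parental samples, the IGF2BP3 knockout clones or the IGF2BP2 knockout clones (edgeR adjusted p = 1 for each). Of all 15622 genes, 0%, 0.0064% (1 gene) and 0% were called. An unadjusted p below 0.05 was reached by 204, 172 and 247 genes, again fewer than a share of 0.05. These tests were cautious as well. Between parental samples 1 and 2 the difference in response was 0.02 for HSPA8 (95% interval -0.21 to 0.26), -0.08 for HSPH1 (-0.54 to 0.37) and 0.15 for DNAJB1 (-0.35 to 0.65). Differences of those sizes were not detectable in this fit, which had 2 libraries per line and treatment and left replicate number out.

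**Figure D3:**
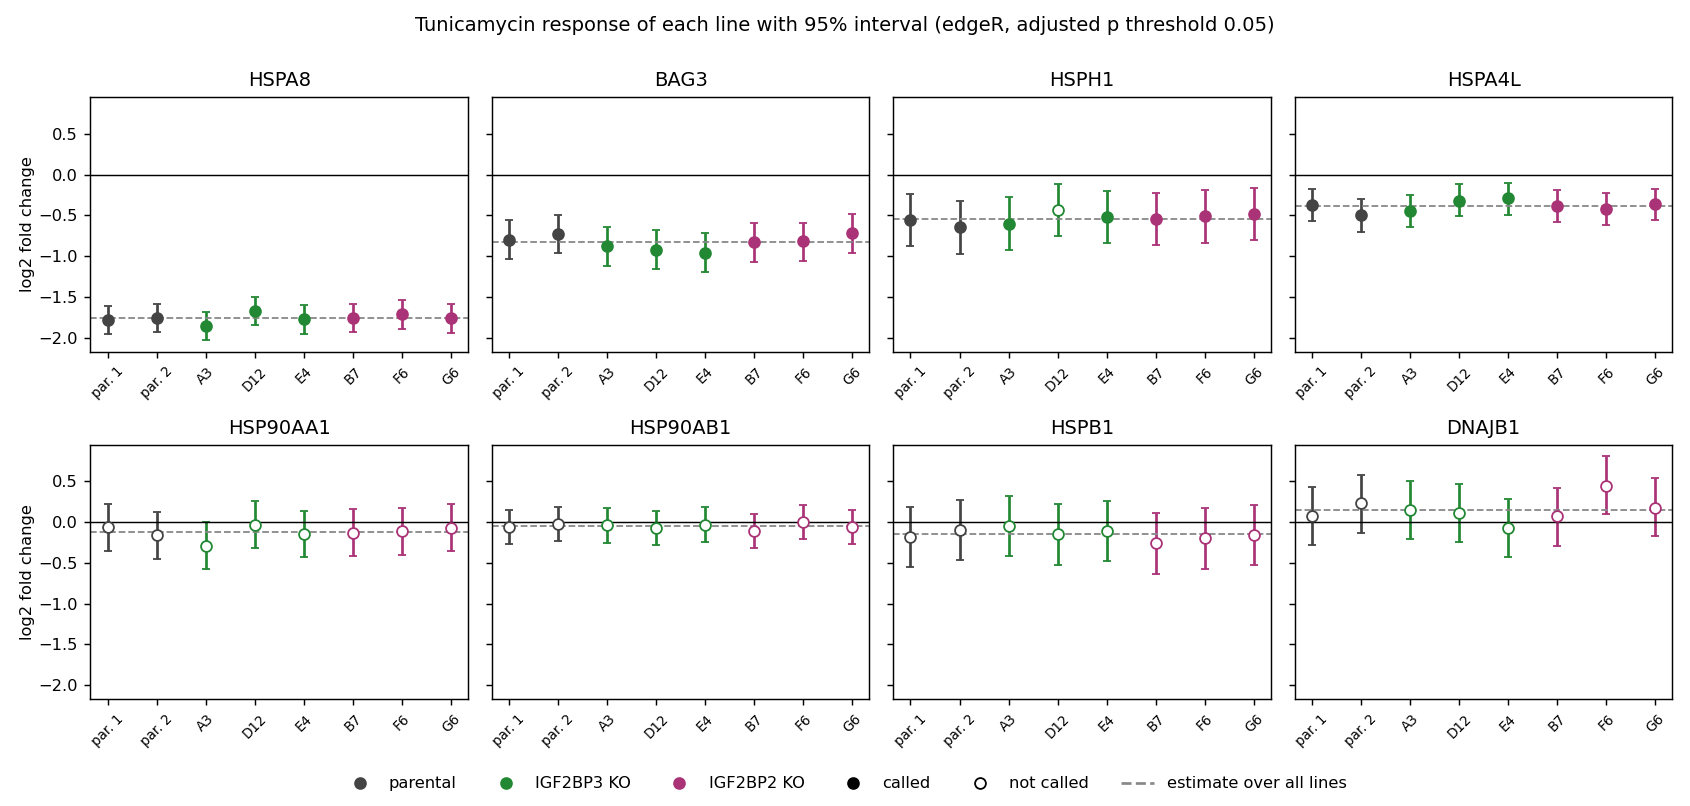
Log2 fold change of tunicamycin over DMSO in each line for the 8 tested members, with 95% intervals as bars. Filled points were called in the fit without replicate number and open points were not, and the dashed line is the estimate over all lines. HSPA8 lies between -1.86 and -1.67 in every line, and DNAJB1 between -0.07 and 0.45.

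Levels were then compared between genotypes within a treatment, and HSPA4L was the member that differed. Parental samples 1 and 2 averaged 59.1 and 55.4 CPM in DMSO, clones A3, D12 and E4 averaged 70.9, 74.3 and 78.1 CPM, and all 6 IGF2BP3 knockout libraries lay above all 4 parental ones. The log2 difference was 0.38 (SE 0.0595, edgeR adjusted p = 0.00556), with 0.515% of 14568 genes called higher. In tunicamycin the line means were 45.6 and 39 CPM in parental samples and 52.2, 59.1 and 63.4 CPM in A3, D12 and E4, again without overlap of libraries, and the log2 difference was 0.47 (SE 0.0851, edgeR adjusted p = 0.0285), with 0.116% of 14626 genes called higher. Libraries of the same clone are not independent clones. When the counts of each line were added up first, edgeR gave an adjusted p of 0.049 for DMSO and of 0.144 for tunicamycin, and the DMSO call was lost among replicate 2 libraries alone (0.146). The call in tunicamycin was also lost without clone D12 (0.107), without clone E4 (0.0971), and without parental sample 1 replicate 1 (0.08), sample 2 replicate 1 (0.104) or sample 2 replicate 2 (0.106).

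HSPA4L had a difference of like direction in IGF2BP2 knockout that did not pass. Clones B7, F6 and G6 averaged 79.6, 75.2 and 60.5 CPM in DMSO, with a log2 difference from parental cells of 0.32 (SE 0.0969, edgeR adjusted p = 0.983). In tunicamycin it was 0.36 (SE 0.0942, adjusted p = 0.695). Without clone G6 the difference was 0.43 in DMSO (edgeR adjusted p = 0.0255) and 0.46 in tunicamycin (adjusted p = 0.0492). Between the knockouts HSPA4L differed by 0.06 in DMSO (95% interval -0.12 to 0.23) and 0.10 in tunicamycin (-0.08 to 0.28). These comparisons share the parental libraries. No other member was called in any comparison of genotypes; the share of all genes called was 0.0137% and 0.00694% for IGF2BP2 knockout against parental cells in DMSO and tunicamycin, and 0.589% and 0.391% between the knockouts.

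Clones of a genotype also differed in level. Among IGF2BP3 knockout clones, with treatment as a covariate, HSPA8 (edgeR adjusted p = 0.0047) and HSPH1 (adjusted p = 0.00107) differed, 2 of 8 members against 7.63% of 14265 genes. HSPA8 in clone E4 stood at 2981 and 2920 CPM in DMSO, below the 3226 to 3791 CPM of A3 and D12, and at 851 and 867 CPM in tunicamycin, below their 919 to 1145 CPM. HSPH1 was highest in D12, with line means of 586 CPM in DMSO and 431.5 CPM in tunicamycin, intermediate in A3 with 492.6 and 324 CPM, and lowest in E4 with 352 and 245 CPM. A3 and E4 were made with the same guide. Among IGF2BP2 knockout clones HSPA4L differed (edgeR adjusted p = 0.00124), 1 of 8 members against 26.4% of 14145 genes, with clone G6 lowest in both treatments at 60.5 and 46.6 CPM.

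Other chaperone genes were taken from lists by compartment. Of 28 cytosolic partners of HSP70 and HSP90, 26 were tested, and over all lines 14 were called lower and 4 higher, with a median log2 fold change of -0.12 beside -0.01 for all genes. Of all 15622 tested genes, 28.4% were called lower and 25% higher. HSPA2, a further HSP70 gene, had the most negative value of the list, -2.82 (SE 0.104, edgeR adjusted p = 2.05e-20), though at low levels of 4.03 ± 0.574 CPM in DMSO and 0.561 ± 0.177 CPM in tunicamycin (SD, n = 16). DNAJA1, a J-domain partner of HSPA8, fell from 379 ± 25.2 to 216 ± 15.9 CPM (SD, n = 16), a change of -0.80 on the log2 scale (SE 0.0303, edgeR adjusted p = 3.42e-20). HSPB8, the small heat shock protein that binds BAG3, fell by 0.50 on the log2 scale (edgeR adjusted p = 0.000477) and DNAJA4 by 0.43 (adjusted p = 5.04e-05). These 4 were named by size of change, and not all partners fell: 7 of the 26 lay above 0 and 19 below. The J-domain genes DNAJB6 and DNAJB4 averaged 110.0 and 25.2 CPM in DMSO and 127.2 and 29.8 CPM in tunicamycin. HSF1 itself had a log2 fold change of 0.10 (edgeR adjusted p = 0.0682), and HSF2 one of -0.01 (adjusted p = 0.84). The inducible HSPA6 and the small heat shock protein CRYAB failed the filter.

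The lists of the other compartments were counted in the same fit, against the same shares of all genes; differences between lists were not tested. All 8 ER chaperone genes were called higher, with a median log2 fold change of 2.35; HSPA5, the HSP70 of the ER, went from 955 ± 114 to 9156 ± 841 CPM (SD, n = 16), or by 3.27 on the log2 scale (SE 0.0555, edgeR adjusted p = 3.71e-29), and DNAJB9 had 3.97 (adjusted p = 9.54e-35). Of 8 mitochondrial chaperone and protease genes, 3 were called higher and 4 lower, with a median of -0.03. HSPA9, the mitochondrial HSP70, had a log2 fold change of 0.38 (edgeR adjusted p = 2.52e-14), and HSPE1, the mitochondrial HSP10, one of -0.40 (adjusted p = 2.98e-05). Of 8 subunits of the cytosolic chaperonin CCT, 1 was called lower (TCP1, -0.11, edgeR adjusted p = 0.0022) and 0 higher, with a median of -0.03. By HSP70 paralog, tunicamycin libraries thus held less HSPA8 and HSPA2 and more HSPA5 and HSPA9.

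**Figure D4:**
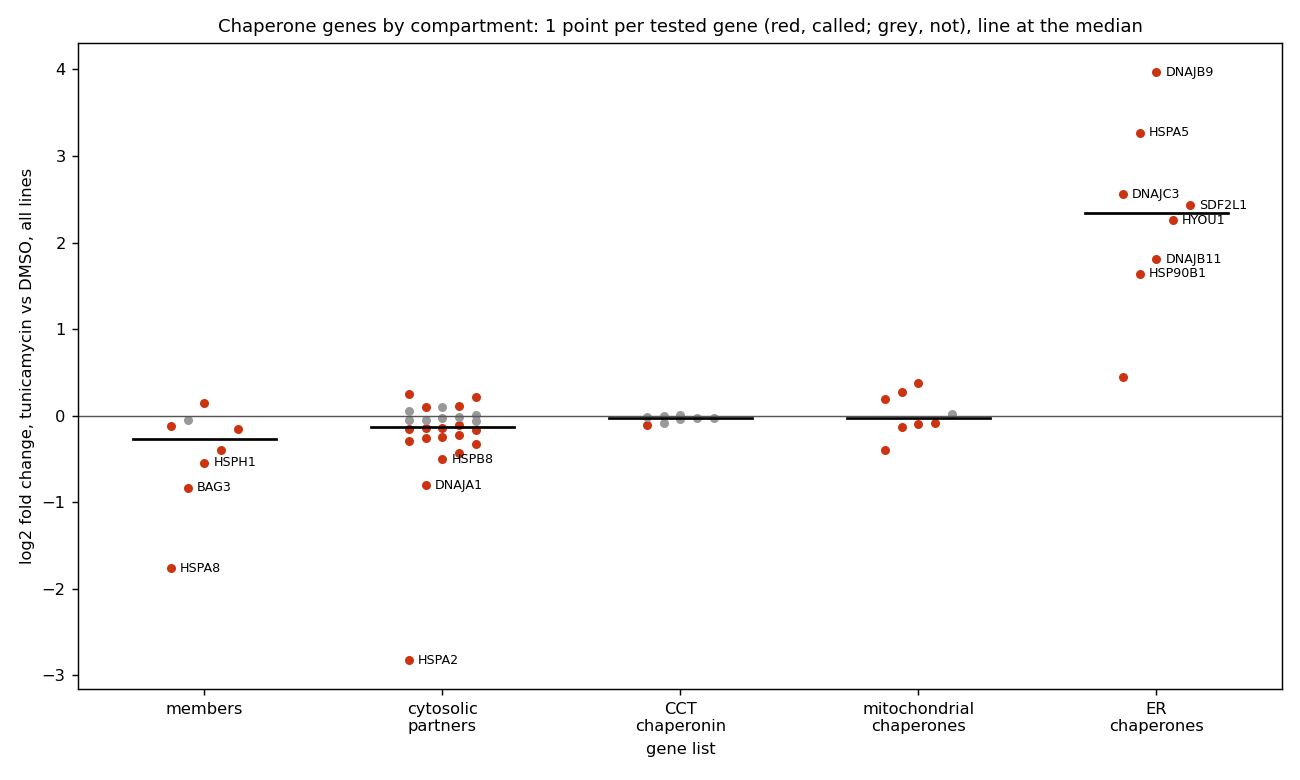
Log2 fold change of tunicamycin over DMSO over all lines (vertical axis) for tested genes of 5 lists (horizontal axis); each point is 1 gene, red where called and grey where not, and the black bar is the list's median. The ER chaperones lie above 0 with a median of 2.35, while HSPA8 at -1.76 and HSPA2 at -2.82 are the lowest points of the members and of the cytosolic partners.

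Likeness between genes was described over the 32 libraries, after the mean of each treatment and replicate number was subtracted from log2 CPM, among 10112 genes with a mean of at least 5 CPM. The libraries share lines and, within a line, its clone, so these correlations describe line differences as much as anything else. HSP90AA1 was most like SEPTIN7 (Pearson r 0.944), SUCLA2 (0.915) and OPA1 (0.91). HSPH1 was most like ERVMER34-1 (r 0.89), NASP (0.866) and CSE1L (0.768), HSPA8 like HMGB1 (0.827), DPP7 (0.812) and LPCAT1 (0.809), and HSPA4L like AGPS (0.859), BMI1 (0.856) and MASTL (0.842). For HSPB1 these were OGDH (0.881), PDCD2 (0.854) and FLII (0.851), and for HSP90AB1 they were MTHFD1 (0.803), HNRNPU (0.8) and TOMM34 (0.794). BAG3 had r 0.727 with POLR1A, 0.722 with CLPTM1 and 0.693 with URB1, and DNAJB1 had 0.683 with OSBP, 0.679 with VKORC1L1 and 0.655 with FKBP9. No member was among the 3 closest genes of another. Between members on the same scale, the highest r was 0.591, between HSPA8 and HSPH1, and the lowest -0.381, between HSPH1 and HSPB1.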

How the data were processed

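Gene counts of 32 poly(A) RNA-seq libraries were taken as deposited; the values are whole-number counts per gene. STAR 2.7.5c and hg38 appear in the submitters' processing notes, and how reads were assigned, including by strand, is not given in the sources used here, so overlapping and antisense genes are uncertain. Groups come from the titles. Counts were filtered (filterByExpr), scaled with TMM factors and tested with edgeR 4.0.16 (limma 3.58.1, R 4.3.3), using its quasi-likelihood F test with Benjamini-Hochberg adjustment over all tested genes and calls at 0.05; the procedure was tested on simulated data. Treatment fits held line as a covariate, and genotype fits were made within a treatment. Levels are TMM-normalized CPM, and levels per kilobase use GENCODE exon lengths. The members and gene lists were chosen with earlier results of these data known. Genes named beyond the members are list genes by size of change and the 3 genes most like each member. Alternatives were DESeq2 1.42.0, other scalings and filters, a replicate block, libraries or clones left out, and counts summed per line.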

Additional observations from a re-analysis of the deposited data

Results flagged for a closer look

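Of 48 groups of 4 to 6 libraries examined for a library far from the rest, 2 held one, and chance gives about 1 in 20. HSPH1 in clone B7 replicate 1 stood at 542 CPM among IGF2BP2 knockout DMSO libraries, above the 404 to 448 CPM of the others. Without clone B7 the HSPH1 response in IGF2BP2 knockout was -0.50 on the log2 scale, beside -0.51 with it. HSP90AA1 in clone A3 replicate 1 stood at 3882 CPM among IGF2BP3 knockout tunicamycin libraries, below the 4624 to 5000 CPM of the others. Without clone A3 the HSP90AA1 response was -0.07 in IGF2BP3 knockout and -0.10 over all lines (edgeR adjusted p = 0.0471).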

How the results depend on the processing

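Of 295 recomputed counts of members called, 273 stayed within 1.5 times the reported count and 22 did not; no result of any kind changed sign past its threshold. In parental cells 7 members were called with the replicate block and 7 with total counts in place of TMM factors, beside 4 reported. With the replicate block the counts were 5 in IGF2BP3 knockout, 6 in IGF2BP2 knockout and 8 over all lines. The calls gained with this block were HSPB1 in parental cells (edgeR adjusted p = 0.00471), IGF2BP3 knockout (0.0431) and IGF2BP2 knockout (4.91e-05), DNAJB1 (0.00594) and HSP90AA1 (0.05) in parental cells, and HSP90AB1 over all lines (0.0109). By line they were HSPH1 in D12 (0.000608), DNAJB1 in parental sample 2 (0.0336) and F6 (5.72e-05), and HSPB1 in parental sample 1 (0.0341), B7 (0.00285) and F6 (0.0202). Same-numbered libraries deviated together with r from 0.0856 to 0.553, over 0.1 in 119 of 120 pairs. The labels do not say that a number marks a shared culture or day, and 1 pair fell short. The block was therefore kept as an alternative. Replicate number did mark a difference between libraries. Genes with any count numbered 21259 to 23139 in replicate 1 and 23423 to 24267 in replicate 2. Replicate 1 lay above replicate 2 in 16 of 16 line and treatment pairs for DNAJB1 and HSPB1. The fits without the block leave this difference in the spread between libraries. Among them are the reported tests of genotype and line differences in response, with their intervals. With the block the DNAJB1 change over all lines was again 0.15 (edgeR adjusted p = 0.000437). For IGF2BP3 knockout against parental cells the count of 1 became 0 in DMSO within replicate number 2, and in tunicamycin it became 0 within replicate number 1, 0 within replicate number 2, 0 with counts summed per line and 0 to 1 with libraries or clones left out. For IGF2BP2 knockout against parental cells the count of 0 became 1 with all 32 libraries in 1 fit in DMSO and 1 in tunicamycin, 1 in DMSO without the control libraries of G6, and 0 to 1 in either treatment with libraries or clones left out. Levels among IGF2BP3 knockout clones gave 5 and 6 called members within replicate numbers 1 and 2, beside 2. Among IGF2BP2 knockout clones 3 were called with the replicate block (adding HSPH1 at 0.0159 and HSPB1 at 0.000445), 3 without the filter, and 3 and 3 within replicate numbers 1 and 2, beside 1. The cause of these changes was not tested. Shares of all genes called under these settings are not given here, so the changed counts stand without a background. At 16651438 counts or more per library, 8 of 10 members passed the filter on low counts, and each line rests on 2 libraries per treatment. Whether depth, shared sequence or read assignment sets the low counts of HSPA1A and HSPA1B was not tested.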

Other observations

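Among 80 genes with a mean of at least 1000 CPM in DMSO, HSPA8 had the lowest log2 ratio of mean levels, -1.77. The next was CCND1, the cell-cycle regulator cyclin D1, with -0.48 (1113 CPM in DMSO and 799.8 CPM in tunicamycin). This comparison was chosen after the values were seen. HSPA1A and HSPA1B lie in the class III region of the major histocompatibility complex on chromosome 6. Of 4 other genes of that region, looked up after the values were seen, CSNK2B and DDX39B had 0 counts in all 32 libraries, while BAG6 averaged 251.5 CPM and VARS1 301 CPM in DMSO. How the counting handled this region was not tested.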
